A study of Homo sapiens with 4 samples.

Results

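The subject is a set of 47 human genes of the extracellular matrix and of mesenchymal cell state, followed in gastric cancer cells treated with the cardiac glycoside periplocymarin. The genes were chosen by name, as a list of collagens, other matrix genes, mesenchymal markers and transcription factors of the epithelial-mesenchymal transition (EMT), and all 47 were found among the 62710 genes of the deposited table. Poly(A) RNA had been sequenced from 4 cultures, 1 library each. The treated libraries were HGC27 cells and MKN45 cells after 24 h in 0.3 µM periplocymarin, and their controls were the same lines with 0.1% DMSO, the vehicle. Both are established human lines: HGC27 comes from a lymph node metastasis of gastric cancer, and MKN45 grew out of a gastric adenocarcinoma with little differentiation. Periplocymarin is a plant steroid of a class that blocks the Na,K-ATPase, the pump that exports sodium and imports potassium. The labels give no genetic change in either line, and each line is a single model without donor or clone replicates. Because each line and treatment has 1 library, comparisons inside a line rest on no replicates and carry no p-value.

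Collagen chains fold in the endoplasmic reticulum as triple helices, are trimmed outside the cell and are then crosslinked by lysyl oxidases. Fibrillar collagens (types I, III and V) form the fibres of connective tissue, type IV forms the network of basement membranes and type VI forms beaded filaments. In EMT, transcription factors of the SNAI, ZEB and TWIST families repress epithelial junction genes, and cells gain vimentin and matrix genes that are typical of fibroblasts. In gastric tumours such genes are known mainly from stromal fibroblasts and from tumour cells that have lost cohesion.

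Values are FPKM, reads scaled by gene length and library size, as the authors deposited them. Whole reads were recovered from the steps between low values and came to 24939986 in treated and 26876279 in DMSO HGC27, and to 27709347 in treated and 36616045 in DMSO MKN45. Each ratio of treated over DMSO is given with a 95% interval from these reads (exact, Clopper-Pearson), which covers counting error only and says nothing of the spread between cultures. The word measured is used for a gene whose 2 libraries of a line average 1 FPKM or more. Higher or lower by 2-fold means a difference of at least 1 in log2(FPKM + 1), a scale that understates the change of low genes. The verbs rose and fell are reserved for genes that passed limma across the lines.

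The name of the gene set was first set against the cells. In HGC27 the 5 gastric epithelial markers examined (CDH1, EPCAM, KRT8, KRT18 and KRT19) summed to 0.399 FPKM in the treated and 0.580 FPKM in the DMSO library, and none reached 1 FPKM. The same markers summed to 2864 FPKM in treated and 1598 FPKM in DMSO MKN45. Of 6 fibroblast markers (DCN, LUM, PDGFRA, PDGFRB, COL1A1 and COL1A2, all of them members), all but PDGFRB stood at or above 1 FPKM in each HGC27 library and none did in MKN45. They summed to 200.4 FPKM in treated and 99.1 FPKM in DMSO HGC27. The endothelial markers (PECAM1, CDH5, VWF and KDR) summed to at most 0.0580 FPKM in any library. The leukocyte markers (PTPRC, CD3E, CD68 and LYZ) summed to 0.0885 FPKM in treated and 0.208 FPKM in DMSO HGC27, and in MKN45 nearly all of their 127 FPKM in the treated and 163 FPKM in the DMSO library was LYZ, a gene that gastric epithelium also expresses. Of the smooth muscle markers (ACTA2, MYH11 and RGS5), ACTA2 alone reached 1 FPKM in HGC27, at 7.59 FPKM in treated and 7.44 FPKM in DMSO cells. HGC27 thus had most of the mesenchymal set and almost none of these epithelial markers. In a bulk library, a lower level in each cell and fewer cells expressing the gene cannot be told apart.

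Presence differed between the lines for most members. In HGC27 36 of the 47 were measured, and in MKN45 11. Of these 8 were measured in both lines (COL6A1, THBS1, FBLN1, MMP14, TIMP1, TIMP2, TWIST1 and S100A4), 28 in HGC27 alone and 3 in MKN45 alone (COL4A1, COL4A2 and NNMT). The remaining 8 were measured in neither line, and these were COL6A3, THBS2, TGFBI, FBN1, the cadherins CDH2 and CDH11, PDGFRB and TWIST2. THBS2 was listed at 0 in all 4 libraries, and the highest value among the other 7 was 0.843 FPKM, that of PDGFRB in DMSO HGC27. Between the DMSO libraries, 33 of the 39 members averaging 1 FPKM or more were higher by 2-fold or more in HGC27 than in MKN45 (14.3% of all 13031 genes at that floor) and 4 were lower (17.4% of all genes). Several members are on the list because earlier work on these data had shown this contrast, so the counts describe the list and support nothing.

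**Figure D1:**
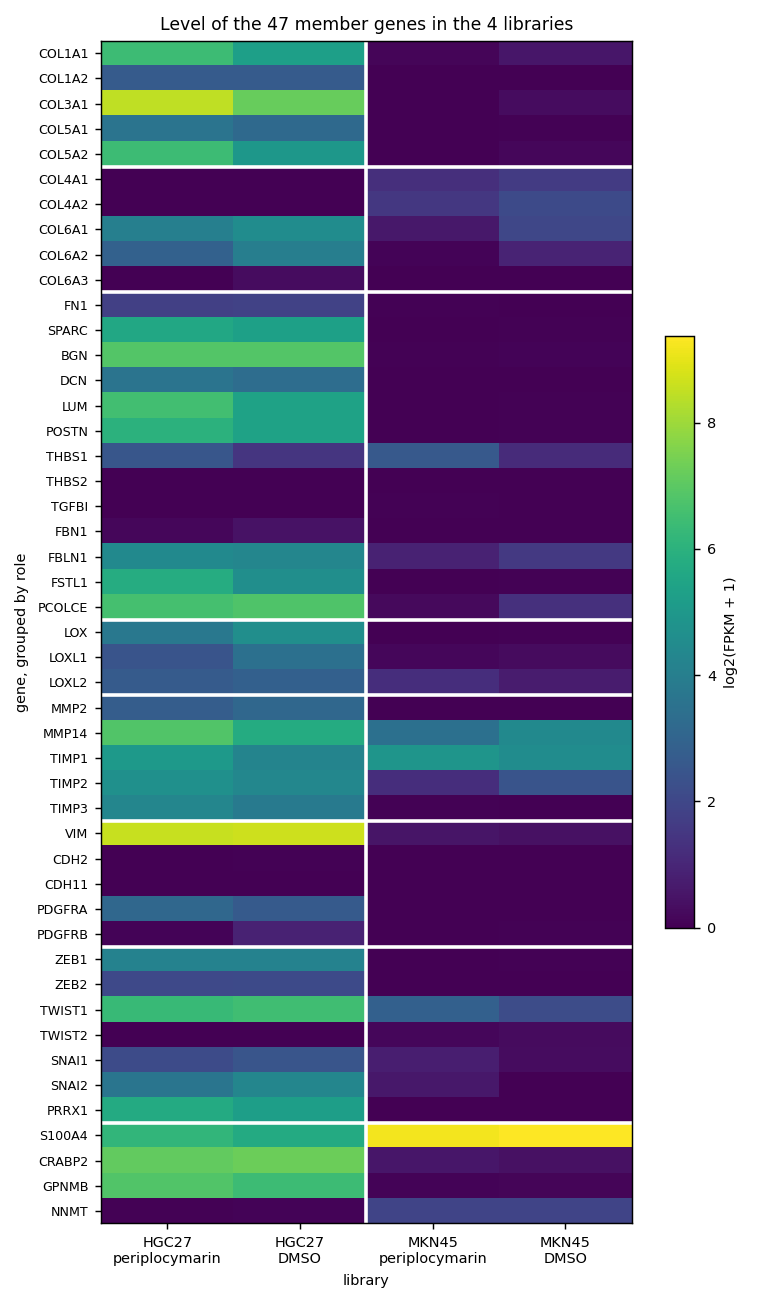
Level of each of the 47 members, as log2(FPKM + 1) on the colour scale, in the 4 libraries (columns), with white lines between roles and between cell lines. VIM is the brightest row in both HGC27 libraries and S100A4 in both MKN45 libraries, where most other rows are near 0.

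In HGC27, 27 of the 36 measured members differed between periplocymarin and DMSO by less than 2-fold. Higher by at least 2-fold were 7, the collagen genes COL5A2, COL3A1 and COL1A1, the matrix genes FSTL1, LUM and THBS1, and the protease gene MMP14. Lower by at least 2-fold were 2, COL6A2 and LOXL1. Among all 11821 measured genes 9.72% were higher and 10.4% lower by this rule. The member median was 0.19 and the median of all measured genes 0.11, both log2 differences, treated minus DMSO.

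Abundant genes as a whole stood higher in the treated library. Of the 4181 genes averaging 10 FPKM or more in HGC27, 19.0% were higher by 2-fold or more and 3.59% lower, against 6 higher and 1 lower among the 26 members at that floor. At 30 to 100 FPKM the median log2 difference was 0.63 over 11 members and 0.64 over 1049 genes. Above 100 FPKM it was -0.10 over 5 members and 0.52 over 294 genes. Within levels the shares were uneven: 5 of 11 members were higher at 30 to 100 FPKM, against 27.3% of genes, and 0 of 10 at 10 to 30 FPKM, against 16.2% of genes.

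These counts also depend on how libraries are scaled. Scaling to library totals alone moved the median of all measured genes in HGC27 by -0.28 log2, left 1 member higher (COL5A2) and made 3 lower. Of all genes past 2-fold in HGC27, 48.3% were higher on the deposited scale and 20.3% with library totals alone. With quantile normalization 1 member was higher (THBS1) and 4 were lower. Of all 11821 measured genes, 490 were higher and 1926 lower with library totals alone. With quantile normalization 738 of them were higher and 1153 lower. Under all 4 of the deposited scale, library totals, quantile normalization and a pseudocount of 0.1, 12 members were on the higher side, 12 on the lower side and 12 took different signs. The same was not counted over all genes, so nothing is read from these sign counts. A common factor per library leaves the order of the member ratios unaltered, and the members are given by role next.

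**Figure D2:**
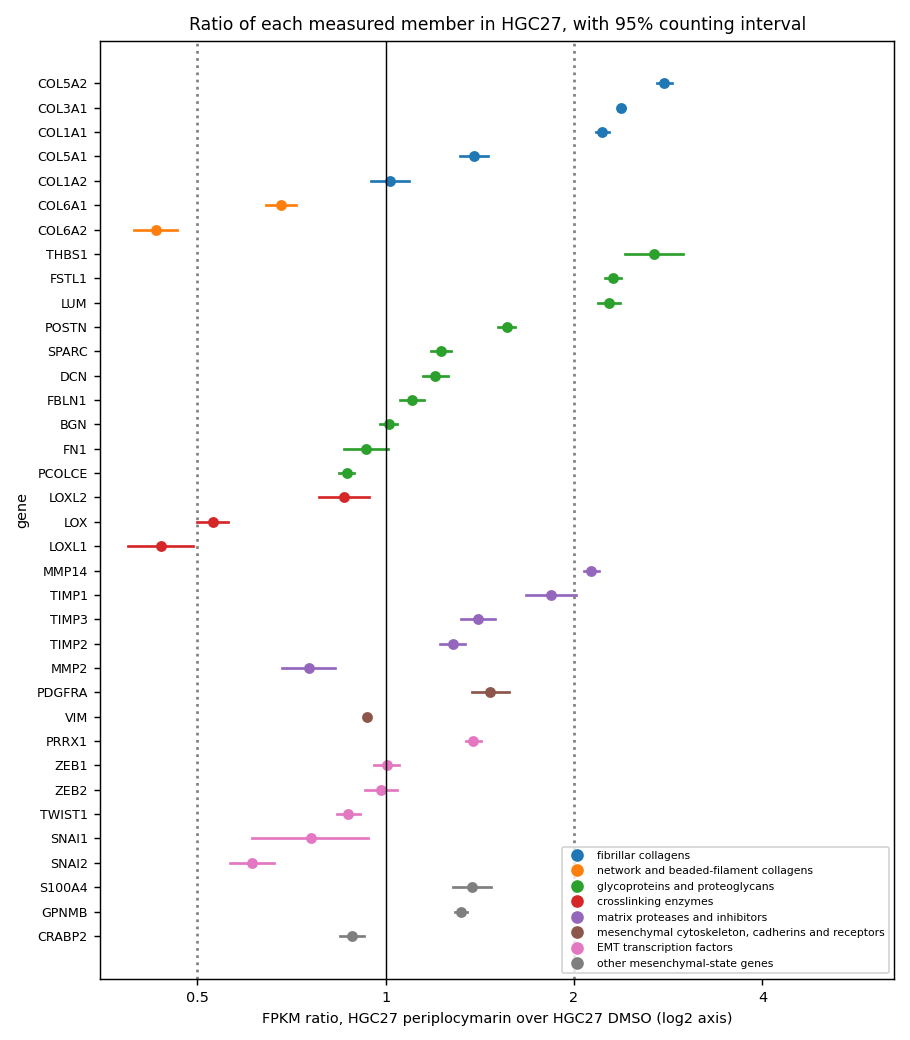
FPKM ratio of treated over DMSO HGC27 (log2 axis) for the 36 measured members, coloured by role, with horizontal bars for the 95% counting interval and dotted lines at 0.5 and 2. Fibrillar collagens lie at and to the right of 1, while type VI collagens and lysyl oxidases lie to the left of it.

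The fibrillar collagens summed to 533 FPKM in treated and 228 FPKM in DMSO HGC27, and 3 of the 5 were more than 2-fold higher, where 9.72% of all measured genes and 19.0% of those averaging 10 FPKM or more were. Of these 3, COL5A2 alone passed 2-fold with library totals alone, and none did with quantile normalization. COL3A1, which encodes the chain of type III collagen, was at 349 FPKM in treated and 147 FPKM in DMSO HGC27, and at 0.0186 FPKM in treated and 0.237 FPKM in DMSO MKN45. Its HGC27 ratio was 2.38 (2.35 to 2.41). COL5A2, a type V chain that helps to start fibrils, was at 83.9 FPKM in treated and 30.1 FPKM in DMSO HGC27, and listed at 0 in treated and at 0.119 FPKM in DMSO MKN45. The COL5A2 ratio of 2.79 (2.71 to 2.87) in HGC27 was the largest of any measured member. COL1A1, the main chain of type I collagen, was at 83.6 FPKM in treated and 37.7 FPKM in DMSO HGC27, and at 0.0838 FPKM in treated and 0.473 FPKM in DMSO MKN45, with an HGC27 ratio of 2.22 (2.17 to 2.27). The partner chains of COL1A1 and COL5A2 differed less. COL1A2, the second type I chain, was at 5.51 FPKM in treated and 5.43 FPKM in DMSO HGC27, and listed at 0 in treated and at 0.0125 FPKM in DMSO MKN45. COL5A1, the second type V chain, was at 11.2 FPKM in treated and 8.10 FPKM in DMSO HGC27, and listed at 0 in treated and at 0.0413 FPKM in DMSO MKN45. The ratio of COL1A2 in HGC27 was within counting error of 1, at 1.02 (0.947 to 1.09). With library totals alone or quantile normalization the COL1A2 difference turned to the lower side (-0.28 and -0.013 log2), whereas the other 4 stayed on the higher side. In MKN45 none of the 5 chains exceeded 0.473 FPKM in either library.

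Because FPKM is per length, chains of 1 protein can be compared within a library, where a common factor per library cancels. In HGC27 the level of COL1A1 was 15.2 times that of COL1A2 in the treated and 6.94 times in the DMSO library. COL5A2 was 7.48 times COL5A1 in treated and 3.71 times in DMSO HGC27. The first ratio was thus 2.18 times and the second 2.02 times as large in the treated library. Quantile normalization, which is no common factor, made both shifts smaller: the gap between the log2 differences of the 2 chains was 0.56 for type I (1.11 on the deposited scale) and 0.67 for type V (1.03 on the deposited scale).

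Type VI collagen was on the lower side in both lines. COL6A2, which encodes the alpha-2 chain, was at 6.48 FPKM in treated and 15.1 FPKM in DMSO HGC27, and at 0.0786 FPKM in treated and 0.916 FPKM in DMSO MKN45. COL6A1, the alpha-1 chain, was at 15.4 FPKM in treated and 22.6 FPKM in DMSO HGC27, and at 0.530 FPKM in treated and 3.02 FPKM in DMSO MKN45. The ratios were 0.429 (0.396 to 0.465) for COL6A2 and 0.680 (0.645 to 0.718) for COL6A1 in HGC27, and 0.0859 (0.0405 to 0.162) for COL6A2 and 0.175 (0.135 to 0.225) for COL6A1 in MKN45. In each line both chains were lower in the treated library than in its DMSO control. COL6A3, the third chain, was below the floor, with 4 recovered reads in treated and 169 in DMSO HGC27. Neither chain passed the test over both lines: the log2 fold from limma was -0.96 ± 0.32 for COL6A1 and -0.97 ± 0.30 for COL6A2 (moderated SE, Benjamini-Hochberg adjusted p = 0.0878 and 0.0738). With library totals alone both passed (limma adjusted p = 0.0192 for COL6A1 and 0.0279 for COL6A2), and with a pseudocount of 0.1 COL6A2 did (0.0308).

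Type IV collagen was found in the other line. COL4A1 and COL4A2 encode the common chains of basement membranes. COL4A1 was at 1.39 FPKM in treated and 2.1 FPKM in DMSO MKN45, a ratio of 0.662 (0.594 to 0.737). COL4A2 was at 1.86 FPKM in treated and 3.27 FPKM in DMSO MKN45, a ratio of 0.569 (0.526 to 0.616). In HGC27 neither exceeded 0.0220 FPKM. Within MKN45 the level of COL4A2 was 1.34 times that of COL4A1 in the treated and 1.56 times in the DMSO library.

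Several collagen members are neighbours in the genome (GRCh38, GENCODE 29). COL3A1 (chromosome 2 from 188974320 to 189012746, plus strand) and COL5A2 (from 189031896 to 189225312, minus strand) are 19149 bases apart with no protein-coding gene between, and both were more than 2-fold higher in treated HGC27. COL6A1 (chromosome 21 from 45981737 to 46005050, plus strand) and COL6A2 (from 46098097 to 46132849, plus strand) are 93046 bases apart, and both were on the lower side. COL4A1 and COL4A2 lie head to head on chromosome 13, with the first bases of their RefSeq transcripts 127 bases apart. Both were on the lower side in MKN45 (-0.38 log2 for COL4A1 and -0.58 for COL4A2). At their level in MKN45, 1 to 3 FPKM, the median over all genes was also below 0, at -0.29 log2. The proteoglycan genes LUM and DCN are also neighbours. On the deposited scale both were on the higher side in HGC27, LUM alone by 2-fold. DCN took the lower side there with library totals alone (-0.076 log2) and with quantile normalization (-0.0044 log2). LUM (lumican), a small proteoglycan of collagen fibrils, was at 92.5 FPKM in treated and 40.7 FPKM in DMSO HGC27, and listed at 0 in treated and at 0.0508 FPKM in DMSO MKN45, with an HGC27 ratio of 2.27 (2.18 to 2.37). DCN (decorin), 28652 bases away on chromosome 12, was at 11.1 FPKM in treated and 9.22 FPKM in DMSO HGC27, and listed at 0 in both MKN45 libraries, with an HGC27 ratio of 1.20 (1.15 to 1.26).

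The lysyl oxidases, copper enzymes that crosslink collagen and elastin, were on the lower side in HGC27, 3 of 3. Of all genes measured there, 55.4% were on the higher side. LOXL1 was at 4.39 FPKM in treated and 10.04 FPKM in DMSO HGC27, and at 0.127 FPKM in treated and 0.201 FPKM in DMSO MKN45. LOX was at 12.5 FPKM in treated and 23.6 FPKM in DMSO HGC27, and at 0.0150 FPKM in treated and 0.0339 FPKM in DMSO MKN45. LOXL2 was at 5.42 FPKM in treated and 6.32 FPKM in DMSO HGC27, and at 1.35 FPKM in treated and 0.653 FPKM in DMSO MKN45. The HGC27 ratios were 0.437 (0.388 to 0.491) for LOXL1, 0.529 (0.4995 to 0.560) for LOX and 0.858 (0.783 to 0.940) for LOXL2, and all 3 stayed on the lower side under each scaling tried. LOX shares exon sequence with SRFBP1, which is on the opposite strand and stood at 17.2 FPKM in treated and 14.7 FPKM in DMSO HGC27. LOXL1 shares exon sequence with LOXL1-AS1 on the opposite strand, at 0.955 FPKM in treated and 2.82 FPKM in DMSO HGC27. The strand setting of the counting is not known, so reads of such pairs may be credited to either gene. LOXL2 shares exon sequence with ENTPD4 on the same strand, where no strand setting could part the reads. ENTPD4 was at 8.78 FPKM in treated and 6.94 FPKM in DMSO HGC27, and at 9.33 FPKM in treated and 9.45 FPKM in DMSO MKN45.

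Among the glycoproteins and proteoglycans, 3 of the 10 measured in HGC27 were higher by 2-fold (FSTL1, LUM and THBS1) and none was lower by as much. The shares over all measured genes were 9.72% higher and 10.4% lower. FSTL1, a secreted follistatin-like glycoprotein, was at 55.2 FPKM in treated and 23.9 FPKM in DMSO HGC27, and at 0.0149 FPKM in treated and 0.0449 FPKM in DMSO MKN45, with an HGC27 ratio of 2.31 (2.24 to 2.38). POSTN (periostin), a matricellular protein, was at 63.5 FPKM in treated and 40.7 FPKM in DMSO HGC27, and at 0.0153 FPKM in treated and 0.0447 FPKM in DMSO MKN45, with an HGC27 ratio of 1.56 (1.51 to 1.61). SPARC, a collagen-binding glycoprotein, was at 47.9 FPKM in treated and 39.0 FPKM in DMSO HGC27, and listed at 0 in treated and at 0.0351 FPKM in DMSO MKN45. These 3 were on the higher side in HGC27, though SPARC took the lower side under at least 1 scaling. BGN (biglycan), a small proteoglycan, was at 116 FPKM in treated and 115 FPKM in DMSO HGC27, and at 0.0349 FPKM in treated and 0.0677 FPKM in DMSO MKN45. FN1 (fibronectin) was at 2.45 FPKM in treated and 2.63 FPKM in DMSO HGC27, and at 0.0268 FPKM in treated and 0.0252 FPKM in DMSO MKN45. The HGC27 ratios of BGN and FN1 were within counting error of 1 on the deposited scale. With library totals alone the HGC27 log2 difference of each was -0.33. With quantile normalization it was -0.56 for BGN and 0.20 for FN1. FBLN1 (fibulin-1), an elastic fibre and basement membrane protein, was at 20.5 FPKM in treated and 18.6 FPKM in DMSO HGC27, and at 0.840 FPKM in treated and 1.90 FPKM in DMSO MKN45. PCOLCE, which enhances procollagen trimming, was at 95.4 FPKM in treated and 110.1 FPKM in DMSO HGC27, and at 0.188 FPKM in treated and 1.44 FPKM in DMSO MKN45. PCOLCE was lower in the treated library of both lines but did not pass (limma adjusted p = 0.218). FBN1 (fibrillin-1) was below the floor, at 0.133 FPKM in treated and 0.373 FPKM in DMSO HGC27, and at 0.00453 FPKM in treated and 0.00879 FPKM in DMSO MKN45.

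THBS1 was the 1 member that passed the test over both lines. It encodes thrombospondin-1, a secreted glycoprotein that binds CD36, CD47 and integrins and can activate latent TGF-beta. THBS1 was at 4.67 FPKM in treated and 1.74 FPKM in DMSO HGC27, and at 5.16 FPKM in treated and 1.24 FPKM in DMSO MKN45. The ratio was 2.68 (2.41 to 2.99) in HGC27 and 4.17 (3.72 to 4.67) in MKN45, and both treated libraries lay above both DMSO libraries. It rose by 1.25 ± 0.30 on the log2 scale (moderated SE, limma with cell line as a block, Benjamini-Hochberg adjusted p = 0.0422, higher in 2 of 2 lines). Over its alternatives the limma adjusted p ran between 0.0194 and 0.830, and it missed the threshold with no low-value floor (0.346) and with no line block (0.830). Of the 38 members that could be tested, 37 did not pass and none fell, while 3.49% of all 12374 genes tested rose and 3.29% fell. A count of 1 in 38 is near that share. The test has 1 residual degree of freedom per gene and takes most of its spread from other genes (8.59 prior degrees of freedom), and for a gene near 0 in MKN45 it averages the HGC27 difference with almost none. The gene spans chromosome 15 from 39581079 to 39599466, plus strand, and shares exon sequence with FSIP1 on the other strand, which was at or below 0.600 FPKM in each library.

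**Figure D3:**
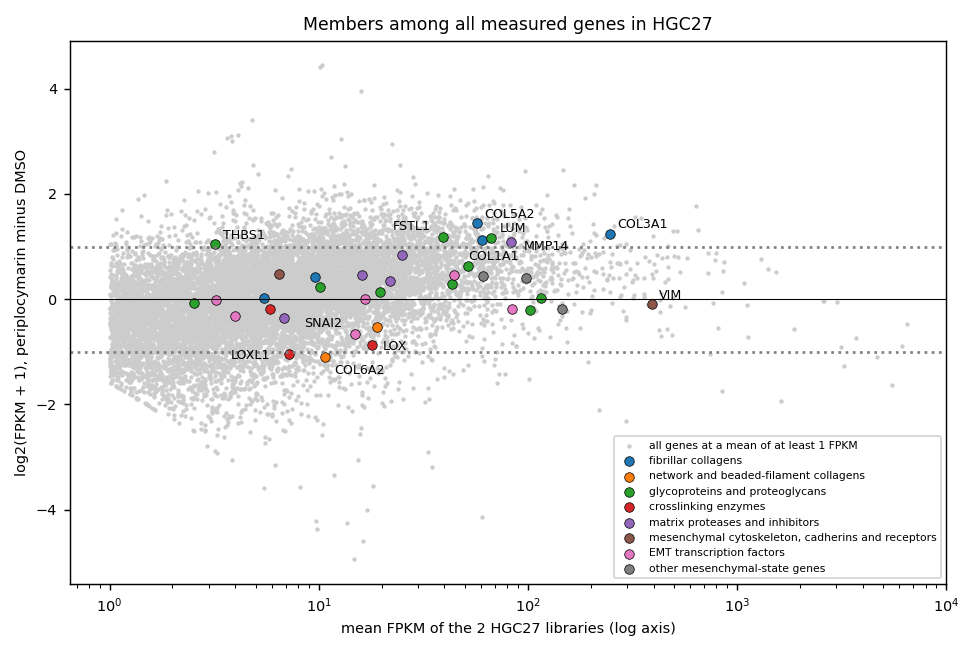
Log2 difference of treated minus DMSO HGC27 (vertical axis) against mean FPKM (log axis) for all 11821 measured genes (grey) and the 36 measured members (coloured by role), with dotted lines at 2-fold. COL3A1, COL5A2, COL1A1, LUM, FSTL1 and MMP14 lie above the upper line at levels where many other genes do.

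Of the 5 proteases and inhibitors, MMP14 and TIMP2 had opposite signs in the lines on the deposited scale. MMP14, a membrane-anchored collagenase that also activates proMMP2, was at 113 FPKM in treated and 53.2 FPKM in DMSO HGC27, and at 10.1 FPKM in treated and 20.9 FPKM in DMSO MKN45. Its ratio was 2.13 (2.07 to 2.19) in HGC27 and 0.484 (0.452 to 0.518) in MKN45. The lines went in opposite directions under each of the 4 scalings tried, and the difference between lines could not be tested with 1 library per group. TIMP2, an inhibitor that also takes part in MMP14-dependent activation of MMP2, was at 24.8 FPKM in treated and 19.4 FPKM in DMSO HGC27, and at 1.34 FPKM in treated and 4.40 FPKM in DMSO MKN45. With quantile normalization TIMP2 was on the lower side in both lines. TIMP1, a secreted inhibitor, was at 32.4 FPKM in treated and 17.6 FPKM in DMSO HGC27, and at 28.7 FPKM in treated and 22.7 FPKM in DMSO MKN45. TIMP1 was thus higher in the treated library of both lines on the deposited scale, but with quantile normalization its MKN45 difference was -0.034 log2. It did not pass the test over both lines (0.58 ± 0.29 log2, limma adjusted p = 0.212). TIMP3, a matrix-bound inhibitor, was at 18.8 FPKM in treated and 13.4 FPKM in DMSO HGC27, and at 0.0274 FPKM in treated and 0.0177 FPKM in DMSO MKN45. MMP2 (gelatinase A) was at 5.86 FPKM in treated and 7.77 FPKM in DMSO HGC27, and listed at 0 in both MKN45 libraries.

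The EMT transcription factors stayed within 2-fold in HGC27, 6 of 6 measured, where 9.72% of all measured genes were 2-fold higher and 10.4% lower. These factors summed to 164 FPKM in treated and 169.9 FPKM in DMSO cells. ZEB1, a repressor of CDH1, was at 16.6 FPKM in treated and 16.6 FPKM in DMSO HGC27, and at 0.0145 FPKM in treated and 0.0502 FPKM in DMSO MKN45. ZEB2, its paralogue, was at 3.22 FPKM in treated and 3.27 FPKM in DMSO HGC27, and listed at 0 in treated and at 0.00311 FPKM in DMSO MKN45. On the deposited scale their HGC27 ratios were within counting error of 1. With library totals alone the HGC27 log2 differences were -0.32 for ZEB1 and -0.29 for ZEB2. With quantile normalization they were -0.36 for ZEB1 and 0.16 for ZEB2. TWIST1, a basic helix-loop-helix factor, was at 78.3 FPKM in treated and 89.8 FPKM in DMSO HGC27, and at 6.36 FPKM in treated and 3.51 FPKM in DMSO MKN45. PRRX1, a homeobox factor of mesenchyme, was at 51.4 FPKM in treated and 37.2 FPKM in DMSO HGC27, and listed at 0 in treated and at 0.0164 FPKM in DMSO MKN45. The SNAI factors had the lowest ratios of the group. SNAI2 (Slug) was at 11.3 FPKM in treated and 18.5 FPKM in DMSO HGC27, and at 0.524 FPKM in treated and 0.0165 FPKM in DMSO MKN45, with an HGC27 ratio of 0.612 (0.564 to 0.663) that passed 2-fold lower with quantile normalization (-1.02 log2). SNAI1 (Snail) was at 3.44 FPKM in treated and 4.53 FPKM in DMSO HGC27, and at 0.713 FPKM in treated and 0.255 FPKM in DMSO MKN45, with 138 recovered reads in treated and 249 in DMSO HGC27. Antisense transcripts share exon sequence with 3 of these genes. ZEB1-AS1 was at 0.451 FPKM in treated and 3.81 FPKM in DMSO HGC27, AC003986.2, which overlaps TWIST1, at 1.14 FPKM in treated and 2.95 FPKM in DMSO HGC27, and ZEB2-AS1 was listed at 0 in treated and at 0.0494 FPKM in DMSO HGC27.

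In MKN45 TWIST1, SNAI1 and SNAI2 were on the higher side, as were 53.5% of all genes measured there. The other EMT factors (ZEB1, ZEB2, PRRX1 and TWIST2) were on the lower side on the deposited scale. None of these exceeded 0.218 FPKM in either MKN45 library. TWIST1 had a ratio of 1.82 (1.53 to 2.15). SNAI1 was below the floor there, with a ratio of 2.80 (1.47 to 5.52). SNAI2, also below the floor, had 41 recovered reads in treated and 2 in DMSO MKN45, a ratio of 31.7 (8.23 to 270.4), whose interval is wide because 2 reads set its base. None of the 6 factors that could be tested, all but TWIST2, passed over both lines (limma adjusted p between 0.620 for TWIST1 and 0.987 for ZEB2).

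Among the 8 members measured in both lines, 5 (FBLN1, MMP14, TIMP2, TWIST1 and S100A4) differed beyond counting error in opposite directions in HGC27 and MKN45, as did 15.9% of the 10071 genes measured in both lines. With 8 members chosen by name, nothing is read from the difference between these shares.

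**Figure D4:**
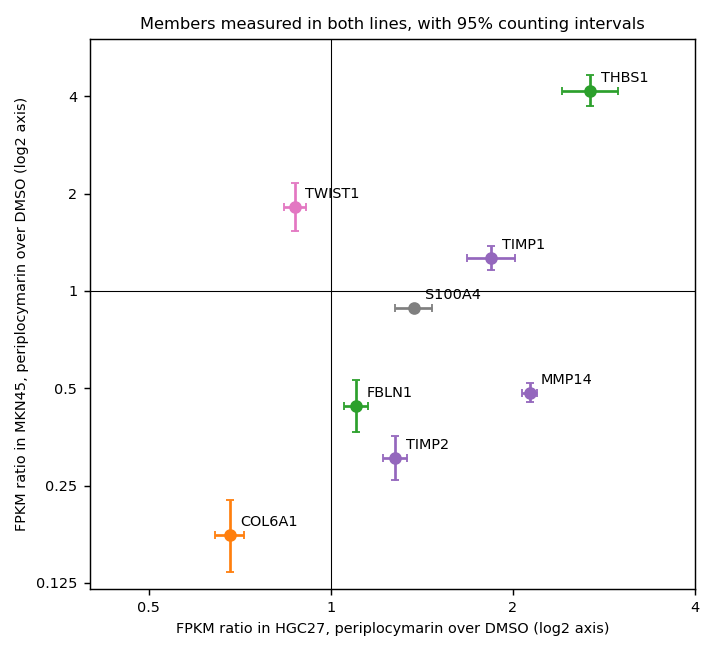
FPKM ratio of treated over DMSO in HGC27 (horizontal) and in MKN45 (vertical), both on log2 axes, for the 8 members measured in both lines, with 95% counting intervals. THBS1 and TIMP1 lie above 1 in both lines and COL6A1 below 1 in both, and MMP14 is at 2.13 in HGC27 and 0.484 in MKN45.

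The other mesenchymal markers measured in HGC27 (VIM, PDGFRA, GPNMB, CRABP2 and S100A4) differed by less than 2-fold there. VIM (vimentin), the intermediate filament of mesenchymal cells, was at 379.6 FPKM in treated and 406 FPKM in DMSO HGC27, and at 0.446 FPKM in treated and 0.346 FPKM in DMSO MKN45. PDGFRA, the alpha receptor of platelet-derived growth factor, was at 7.68 FPKM in treated and 5.23 FPKM in DMSO HGC27, and listed at 0 in treated and at 0.00568 FPKM in DMSO MKN45. PDGFRB, the beta receptor, was below the floor, with 11 recovered reads in treated and 194 in DMSO HGC27, a ratio of 0.0777 (0.0381 to 0.142). The 2 receptors were thus on opposite sides of 1. GPNMB, a transmembrane glycoprotein, was at 111 FPKM in treated and 84.3 FPKM in DMSO HGC27, and at 0.0639 FPKM in treated and 0.106 FPKM in DMSO MKN45. CRABP2, a retinoic acid carrier, was at 136 FPKM in treated and 154 FPKM in DMSO HGC27, and at 0.465 FPKM in treated and 0.351 FPKM in DMSO MKN45. S100A4, a calcium-binding protein linked to cell motility, was at 70.9 FPKM in treated and 51.6 FPKM in DMSO HGC27, and at 582 FPKM in treated and 659 FPKM in DMSO MKN45. S100A4 is therefore the 1 member measured in both lines that stood more than 2-fold lower in DMSO HGC27 than in DMSO MKN45. NNMT, nicotinamide N-methyltransferase, was at 0.0327 FPKM in treated and 0.0597 FPKM in DMSO HGC27, and at 2.75 FPKM in treated and 2.79 FPKM in DMSO MKN45.

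Members below the floor in MKN45 left traces there. Of the 28 measured in HGC27 alone, 10 were listed at 0 in treated and 2 in DMSO MKN45, and 19 were lower in the treated library against 7 higher. The share of all genes at such low levels that were lower was not counted. In all they had 421 recovered reads in treated and 1011 in DMSO MKN45, where the library totals were 27709347 and 36616045. Most of the difference between these sums lay in 3 genes, with reads in treated and DMSO MKN45 in brackets: COL6A2 (10 and 180), PCOLCE (15 and 177) and COL1A1 (18 and 157). Among the 7 that were higher were LOXL2 (192 and 144) and SNAI2 (41 and 2). The sums therefore do not describe the 28 as a group. Over all 28 members, the median MKN45 level as a percentage of the HGC27 level was 0.0437% between the treated and 0.153% between the DMSO libraries. The origin of these reads was not tested.

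For the 11 members measured in MKN45, 1 was at least 2-fold higher (THBS1) and 2 lower (COL6A1 and TIMP2), where 8.21% of 11895 genes were higher and 8.94% lower. Of its 3 members averaging 10 FPKM or more (MMP14, TIMP1 and S100A4) none passed 2-fold on the deposited scale, where 13.9% of 4390 genes were higher and 4.78% lower. MMP14 came just short, at -0.98 log2. It was past 2-fold lower with library totals alone (-1.18), quantile normalization (-1.22) and a pseudocount of 0.1 (-1.04). The median log2 difference in MKN45 was -0.38 over the 11 members and 0.07 over all measured genes. These medians are not matched for level. At 1 to 3 FPKM the median was -0.62 over 6 members and -0.29 over 3173 genes. At that level 2 members and 14.1% of genes were lower by 2-fold or more.

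Upstream sequence is shown for members that stood out and have an entry in the RefSeq promoter table (GRCh38.p14), in which 32 of the 47 members were found. They are the gene that rose (THBS1), FSTL1 and MMP14 from the higher side, COL6A2 and LOXL1 from the lower side, and the stretch that COL4A1 and COL4A2 share between their starts. Each of the first 5 is the 250 bases before the transcript start, 5′ to 3′ on the gene's strand, and the last is the 126 bases between the 2 starts. Capitals mark matches on either strand to the CCAAT box, the Sp-family core GGGCGG, the TATA box as TATAAA, the E-box of SNAI and ZEB factors as CACCTG, the AP-1 site as TGANTCA, the TEAD site as GGAATG, and the CArG box of SRF, and no matches of different motifs overlap.
THBS1, chr15:39580829-39581078, plus strand: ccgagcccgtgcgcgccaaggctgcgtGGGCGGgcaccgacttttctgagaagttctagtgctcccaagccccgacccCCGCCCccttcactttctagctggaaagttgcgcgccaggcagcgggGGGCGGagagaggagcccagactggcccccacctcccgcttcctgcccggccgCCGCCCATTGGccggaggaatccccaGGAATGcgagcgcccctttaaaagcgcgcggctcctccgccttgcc
FSTL1, chr3:120450993-120451242, minus strand: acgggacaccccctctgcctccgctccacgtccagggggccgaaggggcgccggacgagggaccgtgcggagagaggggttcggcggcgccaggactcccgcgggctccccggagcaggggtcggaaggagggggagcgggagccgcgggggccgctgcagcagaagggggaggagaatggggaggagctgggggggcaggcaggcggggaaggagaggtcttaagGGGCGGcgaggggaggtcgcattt
MMP14, chr14:22836335-22836584, plus strand: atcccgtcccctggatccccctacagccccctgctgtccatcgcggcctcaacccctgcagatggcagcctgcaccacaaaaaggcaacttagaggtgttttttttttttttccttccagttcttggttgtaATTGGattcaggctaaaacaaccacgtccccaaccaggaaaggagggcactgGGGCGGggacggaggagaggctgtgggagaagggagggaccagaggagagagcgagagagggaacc
COL6A2, chr21:46097862-46098111, plus strand: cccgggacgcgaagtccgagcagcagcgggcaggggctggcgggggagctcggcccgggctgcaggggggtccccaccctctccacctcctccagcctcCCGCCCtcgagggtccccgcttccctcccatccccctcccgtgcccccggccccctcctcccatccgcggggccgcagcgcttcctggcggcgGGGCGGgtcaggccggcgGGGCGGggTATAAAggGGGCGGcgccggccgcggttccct
LOXL1, chr15:73926212-73926461, plus strand: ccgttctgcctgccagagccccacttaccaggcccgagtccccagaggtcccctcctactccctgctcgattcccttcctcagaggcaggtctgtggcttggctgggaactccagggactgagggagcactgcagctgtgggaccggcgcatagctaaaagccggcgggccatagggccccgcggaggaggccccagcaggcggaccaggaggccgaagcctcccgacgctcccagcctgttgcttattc
COL4A1 and COL4A2, chr13:110307158-110307283, plus strand: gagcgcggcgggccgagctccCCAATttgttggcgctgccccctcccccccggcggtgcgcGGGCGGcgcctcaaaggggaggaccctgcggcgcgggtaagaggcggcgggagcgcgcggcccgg

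The THBS1 window held 4 matches to GGGCGG, 1 to CCAAT and 1 to GGAATG, and the COL6A2 window 4 to GGGCGG and 1 to TATAAA. MMP14 and the shared type IV stretch held 1 CCAAT and 1 GGGCGG each, FSTL1 held 1 GGGCGG and LOXL1 none of the 7 motifs. Of 35116 windows of 250 bases in the table, 42.6% held GGGCGG, 32.0% held CCAAT, 17.5% held CACCTG, 11.9% held GGAATG, 10.7% held TATAAA, 6.57% held TGANTCA and 1.16% a CArG box. Among the 32 members found, 20 held GGGCGG, 11 held CCAAT, 4 held TATAAA, 4 held GGAATG, 3 held CACCTG, 3 held TGANTCA and none a CArG box. A match is a run of letters and was not tested as a binding site.

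Genes outside the 47 were counted from lists of the same pathways. The shares over all genes to set beside each count are 9.72% higher and 10.4% lower by 2-fold in HGC27, and 3.49% that rose and 3.29% that fell by limma. Of 24 genes of collagen folding and secretion, 22 were measured in HGC27, with 3 higher and 2 lower, and over both lines 1 of 21 tested rose and none fell. The 1 was TMEM38B, an ion channel of the endoplasmic reticulum, by 1.19 ± 0.28 log2 (limma adjusted p = 0.0394). P4HA1, a subunit of the prolyl hydroxylase that stabilises collagen, was at 72.5 FPKM in treated and 23.9 FPKM in DMSO HGC27, and at 42.2 FPKM in treated and 29.8 FPKM in DMSO MKN45, and did not pass (limma adjusted p = 0.0788). Its paralogue P4HA2 was on the other side, at 0.989 FPKM in treated and 4.56 FPKM in DMSO HGC27. In MKN45 P4HA2 was at 1.45 FPKM in treated and 2.47 FPKM in DMSO cells, and it did not pass either (limma adjusted p = 0.0973). The other gene of this list 2-fold lower in HGC27 was COLGALT2 (-1.35 log2). Of 41 basement membrane and other matrix genes 19 were measured in HGC27, with 5 higher and 2 lower, and 3 of 22 tested rose and none fell. They were the matricellular genes CCN1 (2.62 ± 0.28 log2) and CCN2 (1.78 ± 0.29 log2), and the laminin chain gene LAMC1 (1.096 ± 0.27 log2). Their limma adjusted p was 0.00519, 0.0225 and 0.0456 in that order. LAMC1 was at 74.4 FPKM in treated and 34.3 FPKM in DMSO HGC27, and at 38.4 FPKM in treated and 17.4 FPKM in DMSO MKN45.

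Of 26 matrix receptors 14 were measured in HGC27, with 4 higher and 2 lower (9.72% and 10.4% of all genes), and 1 of 19 tested rose and none fell (3.49% and 3.29% of all genes). The 1 was the heparan sulphate proteoglycan gene SDC4, by 1.37 ± 0.28 log2 (limma adjusted p = 0.0291). DDR2, a receptor kinase for fibrillar collagen, was at 111 FPKM in treated and 58.9 FPKM in DMSO HGC27, and at 0.0529 FPKM in treated and 0.0636 FPKM in DMSO MKN45, and did not pass (limma adjusted p = 0.384). Of 30 other proteases and inhibitors 11 were measured in HGC27, with 4 higher and none lower, and 2 of 14 tested rose and none fell. They were the sheddase genes ADAM9 (1.30 ± 0.28 log2, limma adjusted p = 0.0332) and ADAM10 (1.24 ± 0.29 log2, limma adjusted p = 0.0383). Of 24 TGF-beta ligands, receptors and SMAD genes 21 were measured in HGC27, with 4 higher and 1 lower, and none of 22 tested passed. TGFB1 was at 17.1 FPKM in treated and 8.41 FPKM in DMSO HGC27, and at 4.07 FPKM in treated and 4.32 FPKM in DMSO MKN45 (limma adjusted p = 0.401). Of 41 epithelial junction and identity genes 9 were measured in HGC27, with none higher and 3 lower, and 1 of 39 tested fell and none rose. The 1 was the mucin gene MUC1, with -1.23 ± 0.28 log2 (limma adjusted p = 0.0369), at 1.10 FPKM in treated and 3.89 FPKM in DMSO HGC27, and at 24.3 FPKM in treated and 58.9 FPKM in DMSO MKN45.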

How the data were processed

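Poly(A) RNA libraries of HGC27 and MKN45 cells, 1 each for periplocymarin and DMSO, were grouped by sample title and analysed from 1 deposited table. Per the submitters' processing notes, fastp 2.0, HISAT2 2.1.0 and hg38 were used, with no role or order stated. Not given in the sources used here: counter, annotation and strand. Judged by the values, since headers give no unit, the authors deposited FPKM. The worth of 1 read in each library was found from low values, with GENCODE 29 lengths or the nearest length that made reads whole. Of 20299 genes with reads in 3 or more libraries, 20298 came out whole (tolerance 0.0001). Library sizes implied by the FPKM, divided by recovered totals, gave 0.944 and 1.20 for treated and DMSO HGC27 and 0.861 and 1.01 for treated and DMSO MKN45, read here as a composition factor, which is an inference.

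Log2(FPKM + 1) of the deposited values was differenced within lines. For the test across lines, limma 3.58.1 (R 4.3.3; lmFit, eBayes with trend, cell line as block) took genes averaging 1 FPKM and 10 recovered reads, at a Benjamini-Hochberg adjusted p under 0.05. Alternatives were library totals alone, quantile normalization, a pseudocount of 0.1, a floor of 10 FPKM or none, a 1.5-fold threshold, limma-voom on recovered reads, and no line block. Scripts were tested on simulated data. The labels do not say whether cultures were independent. The members and lists were chosen with earlier results of these data known. Values in 4 libraries are given for each member measured in HGC27. From the other lists, genes past limma and some of the 3 highest and 3 lowest differences at 10 FPKM or more are named. Those so named that did not pass (P4HA1, DDR2 and TGFB1) were all on the higher side in HGC27. P4HA2 and COLGALT2 are named outside this rule.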

Additional observations from a re-analysis of the deposited data

Results flagged for a closer look

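For 5 of the 8 members measured in both lines, the treated and DMSO libraries differed beyond counting error in opposite directions in HGC27 and MKN45, on the deposited scale. Of the 10071 genes measured in both lines 15.9% did so. With 1 library per group the difference between lines was not tested.

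MMP14 had a ratio of treated over DMSO of 2.13 in HGC27 and 0.484 in MKN45, TWIST1 of 0.872 in HGC27 and 1.82 in MKN45, and TIMP2 of 1.28 in HGC27 and 0.304 in MKN45. FBLN1 (fibulin-1) had a ratio of 1.10 in HGC27 and 0.442 in MKN45, and S100A4 of 1.37 in HGC27 and 0.884 in MKN45. MMP14 and TWIST1 kept opposite signs with library totals alone, quantile normalization and a pseudocount of 0.1. With quantile normalization the HGC27 differences of FBLN1, TIMP2 and S100A4 took the sign of the MKN45 ones (-0.27, -0.07 and -0.17 log2 in HGC27), and for FBLN1 so did library totals alone (-0.20).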

How the results depend on the processing

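The cell line served as the block in limma, which pairs the treated and DMSO library of each line. The labels give no pairing beyond the line. In HGC27 the 7 members higher and 2 lower became 1 higher and 3 lower with library totals alone. They became 1 higher and 4 lower with quantile normalization. At a floor of 10 FPKM 6 were higher and 1 lower, and at 1.5-fold 9 were higher and 4 lower. The member median of 0.19 log2 moved to -0.14 with library totals alone, -0.13 with quantile normalization, 0.31 at a floor of 10 FPKM and 0.015 with no floor, where the median of all genes moved too. In MKN45 the 1 higher and 2 lower became 1 higher and 3 lower with library totals alone and with no floor. With a pseudocount of 0.1 they became 1 higher and 4 lower. At a floor of 10 FPKM they became 0 and 0 (3 members left), and at 1.5-fold 2 higher and 4 lower. Over both lines the 1 higher became 0 with a floor of 10 FPKM (THBS1 is below it), with no floor and with no line block, and the 0 lower became 2 with library totals alone and 1 with a pseudocount of 0.1. With no floor limma called 0 of all 32364 genes (4306 at an unadjusted p under 0.05), and with no line block 0 of 12374 (695 at that p). No member past 2-fold in HGC27 changed sign under a scaling or pseudocount. Of the 36 measured members 30 kept their sign with library totals alone, 24 with quantile normalization and 36 with a pseudocount of 0.1. Kept signs were not counted over all genes. Counting intervals limit little here: their median half-width over measured members was 0.07 log2. Replicate error is unknown.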

Other observations

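ESRP1, an epithelial splicing regulator, and DSP (desmoplakin), a desmosome gene, were named after their values were seen. ESRP1 was at 0.0348 FPKM in treated and 7.64 FPKM in DMSO HGC27, and at 76.3 FPKM in treated and 60.8 FPKM in DMSO MKN45. Its log2 difference was -3.06 in HGC27 and 0.32 in MKN45, and it did not pass the test over both lines (limma adjusted p = 0.177). DSP was at 0.430 FPKM in treated and 1.92 FPKM in DMSO HGC27, and at 52.9 FPKM in treated and 24.0 FPKM in DMSO MKN45, and did not pass either (limma adjusted p = 0.968).

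A common factor per library cancels in the ratio of 2 members within it, while quantile normalization can alter that ratio. The pairs given here were chosen after their values were seen. Within HGC27 the level of COL3A1 was 53.9 times that of COL6A2 in the treated library and 9.71 times in the DMSO library, a 5.55-fold shift. As the gap between the log2 differences of the 2 genes this was 2.35 on the deposited scale and 2.095 with quantile normalization. MMP14 was 4.58 times TIMP2 in treated and 2.75 times in DMSO HGC27, and 7.56 times in treated and 4.75 times in DMSO MKN45. With quantile normalization the gap between the log2 differences of MMP14 and TIMP2 was 0.55 in HGC27 (0.74 on the deposited scale), but in MKN45 it turned to -0.22 (0.23 on the deposited scale).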
